A study of Mus musculus with 2 samples.

Results

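The olfactory receptor (*Olfr*) genes of chromosome 2 were nearly silent, in ES cells as well as in E10.5 forebrain. The NCBIM37 annotation places 349 *Olfr* genes on chromosome 2, and 98 of them are listed in the expression tables, that is, have a value above 0 in at least 1 of the 2 samples. They were chosen as all genes listed on chromosome 2 whose symbol is Olfr followed by a digit. This rule uses no expression beyond being listed, but it was set with earlier results of these data known. The members are 98 of 29311 genes listed in all. Values came from RNA-seq of 1 sample of wild-type (WT) ES cells of strain E14 and 1 sample of WT E10.5 forebrain from B6CBAF1/J embryos, without replicates. The study compared these samples to ask whether *Hox* genes, bivalently marked in ES cells and covered by H3K27me3 alone in forebrain, differ in background transcription. Strain and cell type cannot be told apart in this design, nor can fewer transcribing cells and less RNA per cell in such bulk samples.

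Olfactory receptors are G protein-coupled receptors of the sensory neurons of the nose. In mice they form one of the largest gene families, encoded mostly by a single coding exon and arranged in dense clusters whose neighbouring members arose by duplication. A mature sensory neuron transcribes only one receptor allele, and the remaining clusters are packed in heterochromatin. Mature olfactory sensory neurons reside in the olfactory epithelium, and ES cells and forebrain are not known as sites where the receptors act.

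The deposited values, called RPKM, step in multiples of what 1 read is worth. For a gene with 1 kb of exon 1 read was worth 1.221 in the ES library and 0.8191 in the forebrain library. This gives 42781661 and 59782771 reads on genes, respectively. Divided by these totals, 1 read on such a gene would be an RPKM of 0.0234 and 0.0167 in the usual sense, so the deposited values are 52.2 and 49.0 times larger and serve here only as a relative scale. A listed 0 still allows up to 3 reads, which for a gene of 942 bp, the median of the listed members, is a deposited RPKM of 3.89 (ES cells) or 2.61 (forebrain). Intervals below cover counting error only.

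Reads of this family were often not whole. In ES cells 27 members, and in forebrain 36, carried a value below 1 read, whereas 3.80% and 3.82% of all listed genes did. The counts of members by inferred reads show columns at 0.25, 0.333 and 0.5 of a read in both samples and smaller ones near 0.2 and 0.4 in forebrain. Members with such values shared them with close relatives. Stretches of exonic sequence from the NCBIM37 genome are shown for these groups because they are the closest 50-base matches among their genes. All are coding and on chromosome 2, printed in the sense of the gene, and capitals mark bases that differ from the first gene of a group.

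**Figure D1:**
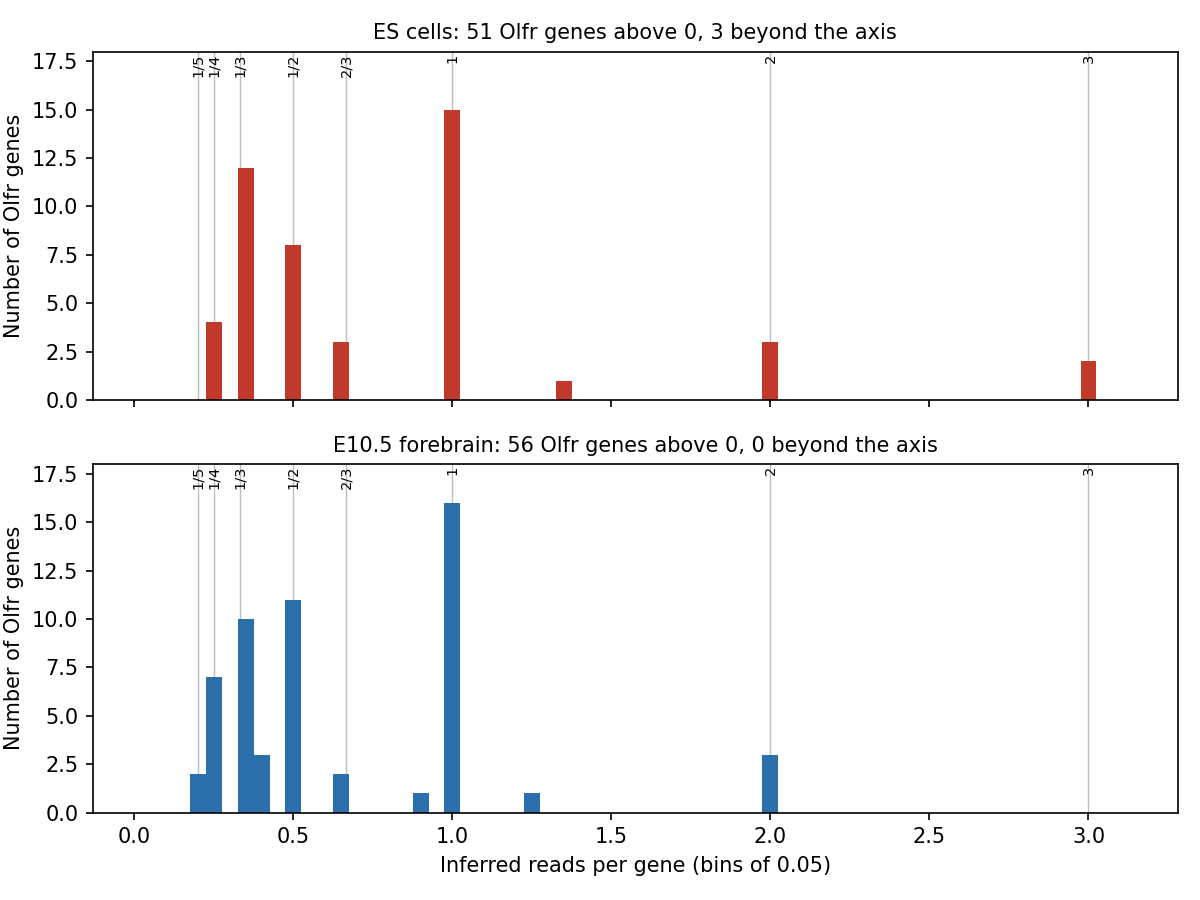
Number of *Olfr* genes of chromosome 2 (vertical axis) by inferred reads (horizontal axis, bins of 0.05) in ES cells and E10.5 forebrain; grey lines mark fractions and whole reads. In both samples most genes above 0 sit at or below 1 read, and 3 genes in ES cells lie beyond the axis, at 3.5, 9.5 and 13.5 reads.

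The trio *Olfr1196*, *Olfr1197* and *Olfr1200* stood at 0.333, 0.333 and 0.331 reads in ES cells and at 0 in forebrain. It shares 163 exact 50-base windows that occur at just these 3 places in the genome, and all 3 genes carry the following stretch, at chr2:88541276-88541325, chr2:88569546-88569595 and chr2:88608262-88608311 on the minus strand.
Olfr1196: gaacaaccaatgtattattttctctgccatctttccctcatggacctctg
Olfr1197: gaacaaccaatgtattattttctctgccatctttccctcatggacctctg
Olfr1200: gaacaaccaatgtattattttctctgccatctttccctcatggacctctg
The 3 values add up to 1 read.

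The pair *Olfr1317* and *Olfr1318*, at 0.499 and 0.497 reads in ES cells and 0 in forebrain, share 485 such windows and an unbroken identical stretch of 242 bases. One shared window lies at chr2:111982146-111982195 and chr2:111996152-111996201 on the plus strand.
Olfr1317: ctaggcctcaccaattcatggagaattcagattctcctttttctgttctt
Olfr1318: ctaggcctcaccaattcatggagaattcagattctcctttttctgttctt

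In forebrain the quartet *Olfr339*, *Olfr344*, *Olfr346* and *Olfr347* stood at 0.25, 0.25, 0.25 and 0.253 reads, and at 0 in ES cells. Here the closest 50-base stretches, at chr2:36277017-36277066, chr2:36424217-36424266, chr2:36543621-36543670 and chr2:36589940-36589989 on the plus strand, differ from *Olfr339* by 1 base.
Olfr339: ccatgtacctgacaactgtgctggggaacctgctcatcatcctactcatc
Olfr344: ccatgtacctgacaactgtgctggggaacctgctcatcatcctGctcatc
Olfr346: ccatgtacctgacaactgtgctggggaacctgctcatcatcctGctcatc
Olfr347: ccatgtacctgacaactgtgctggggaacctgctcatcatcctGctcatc
Both forms of this stretch occur at 5 places in the genome, so also outside the quartet.

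A quartet at the same level in ES cells, *Olfr1281*, *Olfr1282*, *Olfr1285* and *Olfr1286* (0.248, 0.248, 0.253 and 0.248 reads; 0 in forebrain), has its genes on both strands. The stretches lie at chr2:111168917-111168966 and chr2:111248892-111248941 on the plus strand (*Olfr1281* and *Olfr1285*), and at chr2:111175845-111175894 and chr2:111260718-111260767 on the minus strand.
Olfr1281: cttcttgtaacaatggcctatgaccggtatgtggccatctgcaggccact
Olfr1282: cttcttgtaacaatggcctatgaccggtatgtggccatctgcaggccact
Olfr1285: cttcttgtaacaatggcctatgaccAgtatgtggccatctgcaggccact
Olfr1286: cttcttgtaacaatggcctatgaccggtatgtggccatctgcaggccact
The form shared by *Olfr1281*, *Olfr1282* and *Olfr1286* occurs at 6 places in the genome, and that of *Olfr1285* at 1.

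Over the family, 31 members in ES cells held a value that was not a whole number of reads (within 0.05), and 29 of them had a 50-base window whose exact copies in the genome, 2 to 5 in all, each lay in a different *Olfr* gene with such a value. In forebrain it was 35 of 37. Groups that share such windows and whose members all stood at equal shares of 1 read numbered 7 in each sample, covering 18 members in ES cells and 16 in forebrain. The 2 quartets shown above are not among these groups. Being listed went along with having a close relative. Of the 98 listed members 42.9% had a near-identical copy (another *Olfr* gene with 95% identity or more along 80% of the exons or more), whereas 15.9% of the 251 unlisted members did. A listed member had a median of 80.1% of its 50-base windows unique in the genome, against 96.7% for unlisted members and 100% for *Hox* genes. With windows of 100 bases, the read length given in the labels, the medians were 97.2% for listed and 100% for unlisted members. The 55 members listed through values below 1 read alone had a median of 70.0% unique windows, and the 43 with at least 1 read in either sample had 97.9%. Median exonic length (942 and 945 bp), GC content (41.5% and 41.1%) and the share annotated as pseudogenes (16.3% and 18.3%) were alike in listed and unlisted members. These are descriptions of genes, which are not replicates.

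Few members were detected, and most of those by 1 read or less. In ES cells 51 of 349 members (14.6%) were above 0, and in forebrain 56 (16.05%). Of all listed genes, 90.9% were above 0 in ES cells and 92.1% in forebrain, and of all 37310 annotated genes 71.4% and 72.4%. Values of at least 1 read were found for 24 members in ES cells and 20 in forebrain, of which 15 and 16 stood at 1 read (within 0.05). At least 3 reads were reached by 5 members in ES cells and by 0 in forebrain. No member had at least 3 reads in both samples, and only *Olfr1094* had at least 1 in both, with 2 reads (RPKM 2.13) in ES cells and 0.994 (0.71) in forebrain. No member exceeded the median RPKM of all listed genes, which was 48.9 for ES cells and 62.4 for forebrain.

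Of the listed members, 42 were above 0 in ES cells alone, 47 in forebrain alone and 9 in both, where 7.85%, 9.09% and 83.1% of all listed genes were. Of these 9, 6 belong to a pair of trios of close relatives, *Olfr1116-ps*, *Olfr1117-ps1* and *Olfr1118*, and *Olfr1265*, *Olfr1267-ps1* and *Olfr1269*, each at 0.332 to 0.335 reads in ES cells and 0.328 to 0.669 in forebrain. At 1 read per gene, detection in 1 sample and not in the other is not a difference that this depth can show.

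Levels in ES cells were led by 2 genes. *Olfr153* had an RPKM of 13.1 (exact Poisson 95% interval 6.72 to 21.6, 13.5 reads) in ES cells and 0 in forebrain. *Olfr1131* had 12.5 (5.40 to 22.4, 9.5 reads) in ES cells and 0 in forebrain. With 3 reads allowed for each 0 in forebrain, the ES value was 6.71-fold that limit for *Olfr153* and 4.72-fold for *Olfr1131*. These folds leave out the counting error in ES cells and are not lower bounds. An exact binomial test of the reads of the 2 libraries, two-sided with Benjamini-Hochberg adjustment over all 29311 genes, called both (adjusted p = 1.4e-05 for *Olfr153* and 0.00051 for *Olfr1131*). That test compares these libraries, not the cell types. It called 2 of 98 members higher in ES cells, against 30.4% of all listed genes, and 0 higher in forebrain, against 33.1%. The number of members at an unadjusted p under 0.05 was also 2 and 0. All other members had too few reads to be called. *Olfr1127-ps1*, the deepest of them with 3.5 reads in ES cells, had an unadjusted p of 0.065 in this test. *Olfr1069-ps1*, with 2 reads the highest in forebrain, had 0.52. The counts called are thus set by depth and do not show how many members differ.

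The other members among the 10 highest in ES cells were at 1 to 3.5 reads. *Olfr1127-ps1* had 3.5 reads (RPKM 4.99), *Olfr1128* and *Olfr52* 3 reads each (3.91 and 3.82), *Olfr336-ps1* and *Olfr355* 2 each (2.60 and 2.62) and *Olfr337-ps1* 1 (2.70), all at 0 in forebrain. *Olfr1094* and *Olfr1134*, with 2 and 1.34 reads, completed them. For *Olfr1127-ps1*, *Olfr1128* and *Olfr52* the adjusted p of the binomial test was 0.097.

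In forebrain no member exceeded 2 reads. *Olfr1069-ps1*, *Olfr350* and *Olfr1305* had 2, 1.99 and 1.99 reads (RPKM 1.76, 1.74 and 1.74), *Olfr1312* 1.25 (1.07), and all 4 were at 0 in ES cells. The remaining 6 of the 10 highest, *Olfr1230*, *Olfr1154*, *Olfr1300-ps1*, *Olfr228*, *Olfr1291-ps1* and *Olfr1121*, were at 1 read and an RPKM of 0.87 to 0.89, and tied closely with members just below them, such as *Olfr1293-ps* at 0.87. Of these, *Olfr1154* had 0.665 reads in ES cells and the others 0.

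On the log2(RPKM + 1) scale, 22 members were at least 2-fold higher in ES cells and 4 in forebrain, where 23.3% and 25.8% of all listed genes were. All 26 were at 0 in the other sample, and 17 of the 22 and all 4 rested on fewer than 3 reads. With the forebrain column rescaled to the sum of the ES column the split was 22 to 15. The mean difference over listed members was 0.21 and the median -0.07, beside -0.11 and -0.01 over all listed genes, and 48 members were higher in ES cells and 50 in forebrain.

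Since listing itself depends on the values, the family was also taken as a whole. Over the 343 kb of exon of all 349 members, with unlisted genes at 0, there were 65.8 reads in ES cells and 37.7 in forebrain, or 1.54 and 0.630 reads in every 1000000 on genes. On the deposited RPKM scale the pooled density was 0.234 (0.182 to 0.299) for ES cells and 0.0899 (0.0642 to 0.125) for forebrain, a ratio of 2.61 (Clopper-Pearson 95% interval 1.71 to 3.97). Values below 1 read made up 16.7% of the reads in ES cells and 38.3% in forebrain, and the 10 highest members 62.0% and 35.2%.

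Of the ES reads, 49.1% came from 1 stretch of the genome. From *Olfr1127-ps1* to *Olfr1134* (chr2:87363669-87498614, NCBIM37) 9 *Olfr* genes follow each other over 134.9 kb, a stretch chosen after its values were seen. In ES cells *Olfr1127-ps1* had 3.5 reads, *Olfr153* 13.5, *Olfr1128* 3, *Olfr1131* 9.5, *Olfr1132* 0.501, *Olfr1133* 1 and *Olfr1134* 1.34, whereas *Olfr1129* and *Olfr1130* between them are not listed. All 9 were at 0 in forebrain. Together they held 32.3 reads in ES cells, at a pooled RPKM of 4.28, and 0 reads in forebrain, which allow an RPKM of up to 0.266. The 6 members before and the 15 members after them were at 0 in ES cells. Without these 9 genes the family's density was 0.123 (0.0861 to 0.174) in ES cells and 0.0924 (0.0660 to 0.128) in forebrain, and the ratio 1.33 (0.814 to 2.18). As the 9 genes had 0 reads in forebrain, leaving them out had to lower the ratio. The intervals do not allow for that choice.

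*Olfr153* (plus strand, chr2:87371953-87373210) and *Olfr1131* (plus strand, chr2:87468622-87469551) are close relatives. Their coding sequences, compared base by base from the start codon without gaps, were 97.2% identical, with 26 of 921 bases differing. Of the 50-base windows of their exons, 77.5% and 69.1% have no exact copy elsewhere in the genome. Such a window can still differ from the other gene by few bases, so how far reads of each could be told apart is not shown. The aligned 100 bases with the most differences, positions 215 to 314 of the coding sequence (chr2:87372406-87372505 and chr2:87468836-87468935), are shown with the 6 differing bases in capitals.
Olfr153: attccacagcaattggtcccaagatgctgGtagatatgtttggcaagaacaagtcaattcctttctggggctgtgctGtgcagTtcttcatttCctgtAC
Olfr1131: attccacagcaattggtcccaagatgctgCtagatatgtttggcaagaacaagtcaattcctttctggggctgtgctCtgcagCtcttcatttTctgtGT
Just after the start codon both carry the same 50 bases (chr2:87372196-87372245 and chr2:87468626-87468675).
Olfr153: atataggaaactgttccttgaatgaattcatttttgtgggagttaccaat
Olfr1131: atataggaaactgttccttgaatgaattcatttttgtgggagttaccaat
Both values end in 0.5 of a read.

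Genes that are not receptors lie beside this stretch. *Pramel6*, a PRAME-like gene on the plus strand that ends 12.6 kb before *Olfr1127-ps1*, had 84.7 reads (RPKM 49.6) in ES cells and 1.2 (0.47) in forebrain. *Pramel7*, a PRAME-like gene known for its role in naive pluripotency, lies on the minus strand 26.4 kb before it and had 25.1 reads (14.3) and 0. Within the stretch, the pseudogenes *Gm13736*, *Gm13744* and *Gm13743* had 918, 710 and 982 reads in ES cells and 879, 502 and 1809 in forebrain. Reads were thus assigned to them in both samples, while the receptors around them had 0 in forebrain. Copies of these pseudogenes elsewhere in the genome were not searched for, so their reads may not all come from this stretch. Of the named members here, *Olfr1127-ps1* is nearest on its strand to *Gm13738* (6.01 kb; 17 reads in ES cells and 29.5 in forebrain), *Olfr153* to *Gm13736* (5.39 kb) and *Olfr1128* to *Gm13740* (1.35 kb; 1.5 reads in ES cells and 0 in forebrain). *Olfr1134* overlaps *Gm13741*, which is not listed and so at 0 in both samples, on the same strand. *Olfr1131*, also in the stretch, overlaps no gene that is not a receptor and has none on its strand within 20 kb. The same holds for all 15 named members outside the stretch. Whether transcription of the neighbours has a part in the receptor values was not tested.

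**Figure D2:**
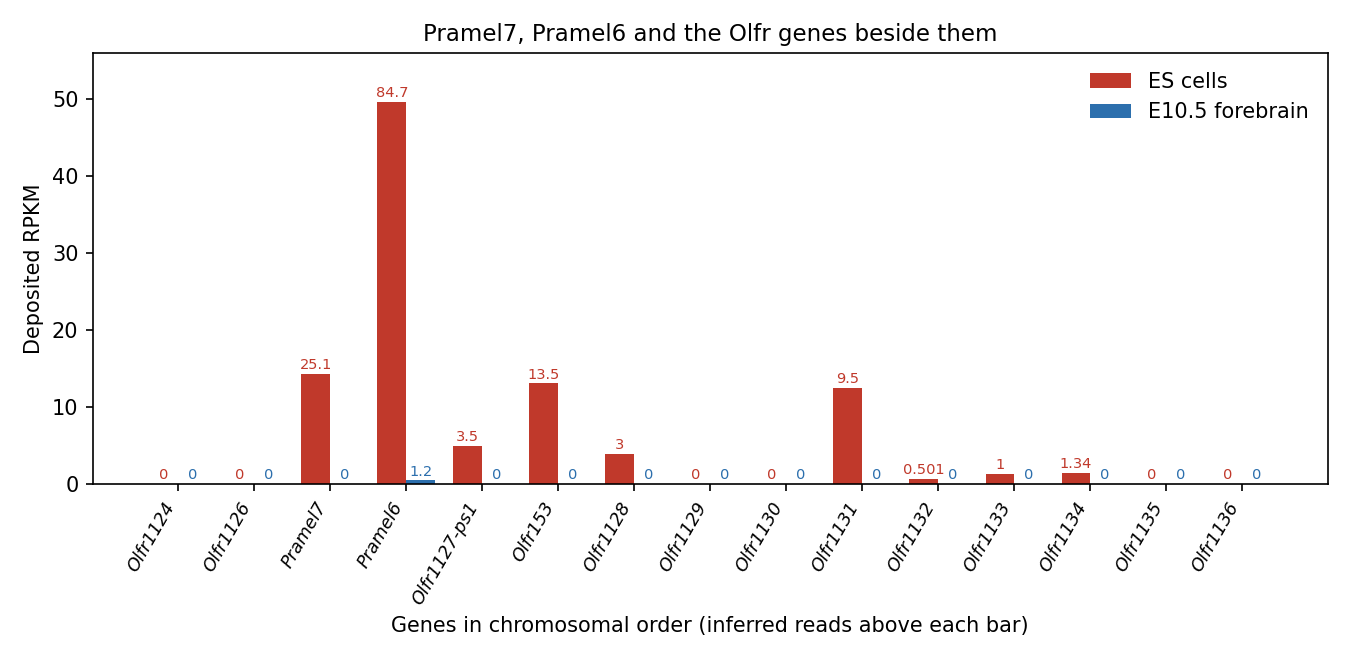
Deposited RPKM (bars, vertical axis) of *Pramel7*, *Pramel6* and the *Olfr* genes beside them in chromosomal order, with inferred reads above each bar; pseudogenes between them are left out. *Pramel6* reaches 49.6 in ES cells, *Olfr153* 13.1 and *Olfr1131* 12.5, and all *Olfr* genes shown are at 0 in forebrain.

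Members closer than 500 kb to each other form 3 clusters. The proximal cluster (chr2:36140548-37188253) holds 37 annotated members, of which 10 are listed. It had 6.003 reads in ES cells and 2.997 in forebrain, a density of 0.216 and 0.0725 and a ratio of 2.99 (0.637 to 18.4). Its ES reads came from *Olfr336-ps1*, *Olfr355*, *Olfr337-ps1* and the pair *Olfr364-ps1* and *Olfr365*, and its forebrain reads from *Olfr350* and the quartet around *Olfr339*.

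The middle cluster (chr2:85171054-90241831) holds 268 members, 66 of them listed, and the stretch around *Olfr153*. It had 56.8 and 24.7 reads, a density of 0.260 and 0.0757 and a ratio of 3.44 (2.09 to 5.68). Without the 9 genes of that stretch it had 24.5 and 24.7 reads and a ratio of 1.48 (0.821 to 2.70), a fall that the choice of these genes made certain.

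The distal cluster (chr2:111070975-111997157) ran the other way. It holds 44 members, 22 of them listed, and had 2.992 reads in ES cells and 9.997 in forebrain, a density of 0.0867 and 0.194 and a ratio of 0.446 (0.0791 to 1.74). In ES cells 7 of its members were above 0 and 1 of these, *Olfr1296-ps1*, had a whole read. In forebrain 15 were above 0, with *Olfr1305* at 1.99 reads and *Olfr1312* at 1.25. Several forebrain values here were multiples of 0.2 of a read, as for *Olfr1297* (0.195), *Olfr1302* (0.197), *Olfr1290* (0.405), *Olfr1292-ps1* (0.401) and *Olfr1298* (0.401). The interval of its ratio includes 1 and does not overlap that of the middle cluster, but it does overlap that of the middle cluster without the 9 genes.

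**Figure D3:**
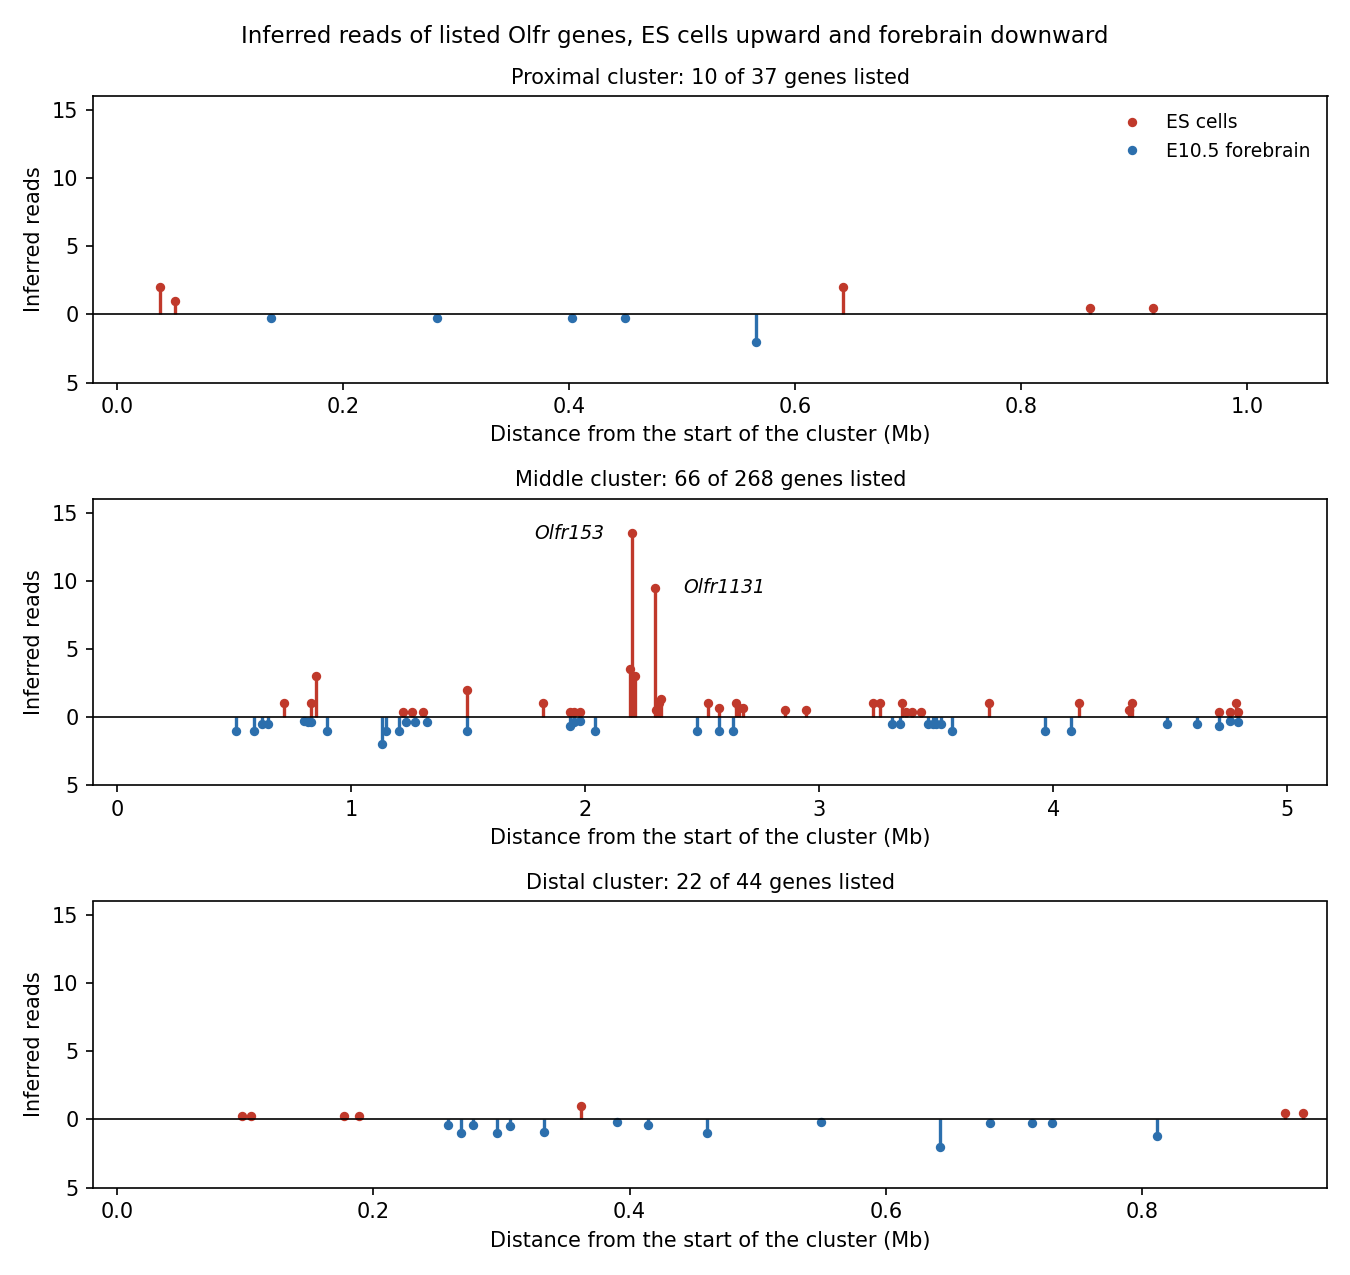
Inferred reads of each listed *Olfr* gene by its distance (Mb) from the start of its cluster, upward for ES cells and downward for E10.5 forebrain, 1 sample each. *Olfr153* (13.5 reads) and *Olfr1131* (9.5) stand together in the middle cluster of ES cells, and all other points are at 3.5 reads or less.

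Compared with *Hox* genes, the family was lower in both samples. The 39 *Hox* genes, transcription factors of the body axis, had a pooled density of 6.02 (5.52 to 6.56) in ES cells and 0.255 (0.176 to 0.359) in forebrain. This was 25.7-fold (19.8 to 33.6) and 2.83-fold (1.71 to 4.61) above the receptors of chromosome 2. In ES cells 35.8% of the *Hox* reads came from 2 genes, led by *Hoxc13*, and 34.9% of the receptor reads came from 2. The median RPKM of listed genes in ES cells was 1.46 for *Hox* genes and 0.33 for the receptors. The ratio of ES cells to forebrain was 23.6 (16.6 to 34.6) for *Hox* genes, an interval that does not overlap the 1.71 to 3.97 of the receptors. For the 9 *Hoxd* genes, which lie on the same chromosome, it was 6.31 (2.49 to 18.5) and does overlap. At least 1 read was found for 84.6% of *Hox* genes in ES cells and 35.9% in forebrain, and for 6.88% and 5.73% of the receptors. *Hox* genes had no value below 1 read. The *Hoxd* genes had a density of 1.09 (0.697 to 1.59) in ES cells, 4.66-fold (2.77 to 7.37) that of the receptors, and 0.173 (0.0637 to 0.378) in forebrain, where the 1.92-fold difference (0.661 to 4.56) was within counting error.

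Other receptor families were near or above these values. The 902 *Olfr* genes of other chromosomes had a density of 0.824 (0.761 to 0.891) in ES cells, 3.52-fold (2.72 to 4.59) that of chromosome 2, and 0.113 (0.0938 to 0.134) in forebrain, 1.25-fold (0.856 to 1.83). In ES cells 28.1% of their 630 reads came from 2 genes, led by *Olfr985*. The 328 vomeronasal receptor genes (*Vmn1r* and *Vmn2r*), which detect pheromones, had 0.582 (0.513 to 0.656) and 0.276 (0.238 to 0.319), and were 2.48-fold (1.88 to 3.29) and 3.06-fold (2.14 to 4.43) above the family. Of the vomeronasal reads in ES cells, 39.9% came from 2 genes, led by *Vmn1r90*. The vomeronasal ratio of ES cells to forebrain, 2.11 (1.74 to 2.56), overlaps that of the *Olfr* genes of chromosome 2, whereas that of the other *Olfr* genes, 7.31 (6.06 to 8.94), does not. The latter was led by chromosomes 9 and 19, with ratios of 45.9 (25.4 to 99.8) and 21.8 (8.15 to 83.3), and the intervals of the other 9 chromosomes with at least 20 *Olfr* genes overlap that of chromosome 2. Among the 12 chromosomes with at least 20 *Olfr* genes, pooled ES densities ran from 0.0864 on chromosome 1 to 2.83 on chromosome 9, and chromosome 2, with the most genes, was 7th.

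**Figure D4:**
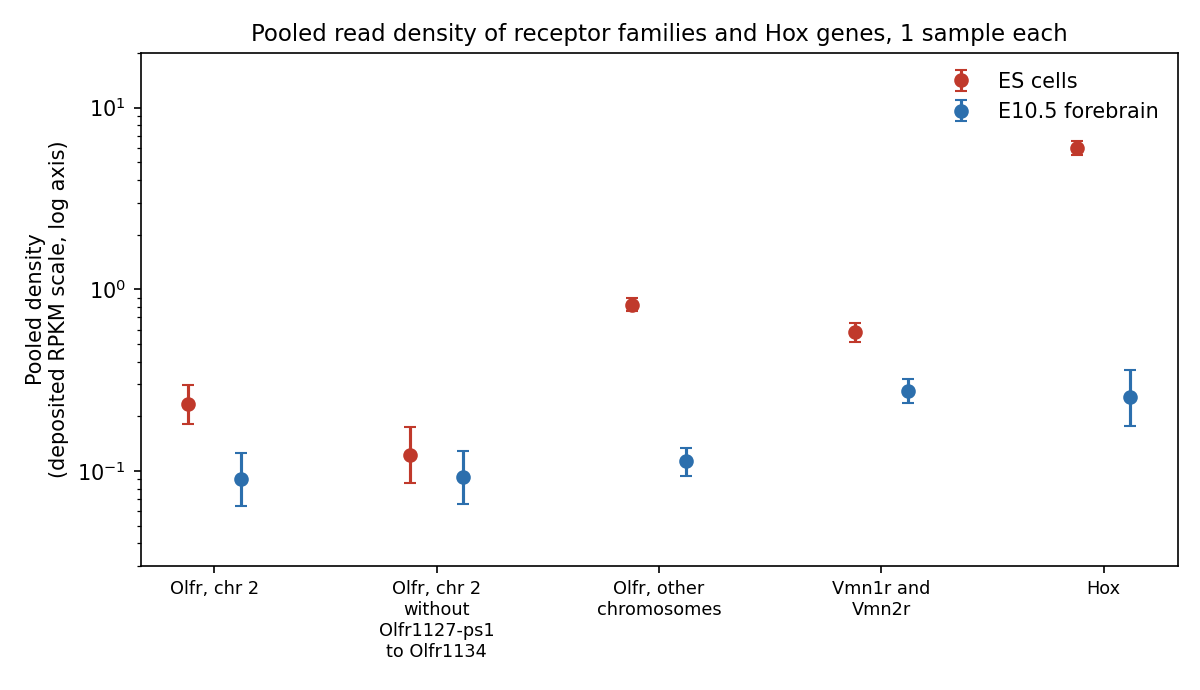
Pooled read density on the deposited RPKM scale (log axis) of *Olfr* genes of chromosome 2, with and without the 9 genes from *Olfr1127-ps1* to *Olfr1134*, of other *Olfr* genes, *Vmn1r* and *Vmn2r* genes and *Hox* genes, with exact Poisson 95% intervals and 1 sample per point. ES values spread from 0.123 to 6.02, and forebrain values from 0.0899 to 0.276.

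Sample identity and the olfactory system were checked with fixed lists. All 8 ES cell markers, among them *Pou5f1* (RPKM 11240 in ES cells and 42.9 in forebrain), were at least 2-fold higher in ES cells, and all 8 forebrain markers, such as *Otx2* (78.5 and 989.4), in forebrain. Markers of other cell types were mostly higher in the forebrain sample, with 5 of 5 erythroid, 7 of 8 mesenchyme and 4 of 5 endothelial markers at least 2-fold higher there, and summed RPKM of 431400, 18190 and 1827 against 206, 111.6 and 602.1 in ES cells. Their part in the receptor values was not tested. Markers of olfactory sensory neurons were at an RPKM between 0 and 522.8 in ES cells and between 0.53 and 347 in forebrain. Of these 9 markers, 2 were at least 2-fold higher in ES cells and 1 in forebrain, beside 23.3% and 25.8% of all listed genes. *Gng13*, the highest by RPKM in both, had 331 reads in ES cells and 327 in forebrain, but others had few. *Cnga2*, a subunit of the olfactory cyclic nucleotide-gated channel, had 0.989 reads in ES cells and 4.01 in forebrain, *Rtp1*, which brings receptors to the cell surface, 0 and 2.02, and *Omp*, the olfactory marker protein, 26 and 14. Of the 9 markers 2 were at 0 in ES cells and 0 were in forebrain.

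Of 13 genes of olfactory transduction, 3 were at least 2-fold higher in ES cells (*Cnga4*, *Cngb1* and *Omp*) and 3 in forebrain (*Ano2*, *Pde1c* and *Slc24a4*), beside 23.3% and 25.8% of all listed genes. The binomial test of the reads called 4 of them higher in the ES library and 7 in the forebrain library, beside 30.4% and 33.1% of all listed genes. The G protein subunit *Gnal* and the adenylyl cyclase *Adcy3* had RPKM of 15.3 and 92.2 in ES cells and 26.7 and 163.8 in forebrain. Of 3 export genes *Rtp2* was higher in ES cells (10.6 and 0.34) and *Reep1* in forebrain (31.7 and 374.3). Of 12 regulators of receptor choice 0 were at least 2-fold higher in ES cells and 5 in forebrain, again beside 23.3% and 25.8% of all listed genes. The 5 were *Lhx2*, *Emx2*, *Ebf2*, *Ebf3* and *Ebf4*, of which *Lhx2* and *Emx2* are also on the list of forebrain markers. *Lhx2*, a homeodomain factor that binds receptor enhancers in the nose, had an RPKM of 0 and 876.6, while no receptor gene of chromosome 2 exceeded 2 reads in that sample.

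RefSeq windows from 250 bases before to 50 after the gene start (GRCm38.p6) were found for 243 symbols of *Olfr* genes of chromosome 2. In 182 of 245 windows the gene start was a start codon, so most cover coding starts rather than promoters. On either strand the letters TAATTA, bound by homeodomain factors, occurred in 24.7% of the 243 and in 6.12% of all 27025 symbols searched, TATAAA in 49.8% and 15.7%, and the Ebf-like letters CCCNNGGG in 2.06% and 15.4%. These shares describe letters only, without allowance for the base composition of the windows.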

How the data were processed

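Ribosomal RNA-depleted total RNA was sequenced by the authors as stranded single-end libraries (TruSeq Stranded Total RNA; 100 bp per the labels, 50 bp in the methods) and mapped to NCBIM37 (mm9) with HTSstation. The submitters' processing notes name Bowtie 0.12.7. How reads with several matches were counted, and how samples were scaled, is not given in the sources used here. The authors deposited 1 RPKM value per gene, listing no gene at 0 in both samples.

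The step of 1 read was found on lowly expressed genes whose exons span 2500 bp or less. In ES cells 58.9% and in forebrain 63.2% of these lay within 0.05 of a whole multiple, against 10% by chance. Reads were inferred as RPKM × kb / step and kept unrounded, except for intervals and the binomial test (expected ES share 40.1%). *Hoxa3* was ENSMUSG00000059723. All listed genes matched the annotation by identifier and coordinates. With 1 sample per cell type no test covers biological variation. The step search and binomial test were tested on simulated data. Those reads were whole, and changes were planted only in genes with more expected reads than any member had. Split reads and changes at the depth of this family were therefore not covered.

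Members and lists were chosen with earlier results of these data known. Named members are the 10 highest in each sample and those called by the binomial test. Lists covered *Hox*, other receptor families, transduction, export, receptor choice and cell markers. Alternatives covered detection limits, pseudocounts, scaling, filters and close copies. Copies were found with blastn 2.17.0. Python 3.11.15, numpy 2.4.6, pandas 2.3.3, scipy 1.17.1 and matplotlib 3.10.9 were used.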

Additional observations from a re-analysis of the deposited data

How the results depend on the processing

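Of 43 alternatives, 10 added after the data were seen, 20 left the value within 1.5 times (counts) or inside its interval (the ratio), 23 moved it and 0 reversed it, with any change of the mean log2 difference at 2 decimals taken as a move. Members detected in ES cells (51) fell to 5 at 3 reads or more, to 24 at an RPKM of at least 1 and at 1 read, and to 28 without members that have a near-identical copy. In forebrain (56) the same limits left 0, 4, 20 and 32. The ratio of pooled densities ranged from 2.07 to 2.82 under the other scalings and subsets, and was 1.33 without the 9 genes from *Olfr1127-ps1* to *Olfr1134*. *Olfr153*, whose transcript is longer than that of *Olfr1131*, counts as having no near-identical copy. The mean log2 difference (0.21) was 0.32 and 0.09 at pseudocounts of 0.1 and 5, 0.16 and 0.22 when scaled by column sum and upper quartile, 2.94 over the 5 members with at least 3 reads, which pass that filter through ES cells alone and so had to be higher there, and 0.06 without the 9 genes. Scaling by column sum shifts the median of all genes to -0.26. Members at least 2-fold higher in ES cells (22) were 44 and 2 at the pseudocounts of 0.1 and 5 and 5 with at least 3 reads. Those in forebrain (4) were 47, 0 and 0, and 15 by column sum. The binomial test called 2 and 0 members under its other settings and 0 without the 9 genes. These include both called members, so that 0 was certain. Leaving them out also had to lower the ratio and the mean log2 difference, since they held reads in ES cells and 0 in forebrain. Over these settings the adjusted p was 1.2e-05 to 2.3e-05 for *Olfr153* and 0.00043 to 0.00071 for *Olfr1131*. The cause of these changes was not tested. No paired analysis was possible because each cell type has 1 sample. Depth limits single members, since 55 of the 98 are listed through values below 1 read alone.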
